A study of Mus with 96 samples.

Results

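In mouse liver, 10 genes that encode proteins of the lipid droplet were followed, namely Plin2, Plin4, Plin5, Cidea, Cideb, Cidec, Fitm1, Fitm2, G0s2, and Pnpla2. They were found by gene symbol as 10 of the 55487 genes in the count table, and all 10 were among the 15548 that were tested, for which a gene had to reach 100 counts over all libraries. The livers came from 96 C57BL/6J mice of both sexes, 8 to 10 weeks old when housed for the study in a light/dark cycle. After acclimation and feeding, the mice were killed every 4 hours at Zeitgeber time (ZT) 2, 6, 10, 14, 18, and 22. Mice labelled Hep-Bmal1KO carried Cre recombinase under the albumin promoter, which acts in hepatocytes, on a background of floxed Bmal1 alleles. Mice labelled Hep-Bmal1WT were littermates with the same floxed alleles and no Cre. Each genotype was fed normal chow (NC) or, for 2 weeks, a choline-deficient high-fat diet (cdHFD), a diet used to induce steatohepatitis. This gave 4 groups of 24 mice, with 4 mice at each ZT. RNA was read by BRB-seq, which barcodes each sample and sequences the 3′ end of the mRNA.

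A lipid droplet is a store of triglyceride and cholesterol ester wrapped in a single layer of phospholipid. Proteins of the FIT family, Fitm1 and Fitm2, act in the endoplasmic reticulum where droplets form and bud. Perilipins, among them Plin2, Plin4, and Plin5, coat the surface and govern access of lipases. CIDE proteins, Cidea, Cideb, and Cidec, sit at contact sites between droplets and pass lipid from small to large ones, and Cideb also serves very-low-density lipoprotein lipidation in hepatocytes. Pnpla2 encodes adipose triglyceride lipase, the enzyme that takes the first fatty acid from triglyceride, and G0s2 encodes its inhibitor. In liver, Plin2 is the common droplet coat, whereas Cidea and Cidec are best known from adipose tissue and rise in fatty liver.

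Libraries held between 1861740 and 9718615 reads on genes, with group medians from 5769262 to 7637271. Of the 96 libraries, 7 lay nearer the other genotype label than their own, both on 10 clock genes and on 20 other genes. All comparisons below are therefore between labels. Where a call of a difference in level between genotypes, diets, or sexes depends on those 7, the value without them is also given. They were 2 libraries of Hep-Bmal1WT and 2 of Hep-Bmal1KO on NC, and 2 of Hep-Bmal1WT and 1 of Hep-Bmal1KO on cdHFD. The 3′ reads of the targeted gene, listed as Arntl, do not test the deletion, because the floxed exon lies upstream of them. In 21 libraries, markers of skeletal muscle or of adipocytes summed to over 10 CPM (read counts scaled to a common library size), 8 in each genotype on NC, 1 in Hep-Bmal1WT on cdHFD, and 4 in Hep-Bmal1KO on cdHFD. Hepatocyte markers were present in all groups, with a mean sum of 5 markers between 78337 and 177780 CPM. The 12 plate columns in which libraries were made held 1 genotype and diet each, so plate column and group cannot be told apart. Each column also held only 2 neighbouring ZTs of its group. Differences between plate columns are therefore also tied to time of day in the rhythm, amplitude, and phase results.

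The largest difference among the 10 genes was that of Cidec between diets. In livers labelled Hep-Bmal1WT, the level of Cidec on NC had a lowest value of 0.511, a median of 3.21, and a highest value of 15.3 CPM. On cdHFD the corresponding values were 31.7, 59.2, and 107 CPM. In livers labelled Hep-Bmal1KO, Cidec ranged from 0.226 through a median of 1.71 to 7.69 CPM on NC. On cdHFD it ranged from 23.1 through 44.6 to 91.9 CPM. Every liver on cdHFD thus stood above every liver on NC in both genotypes, as was the case for 2.20% of all genes in Hep-Bmal1WT and 3.19% in Hep-Bmal1KO. The fold change was 13.8 in Hep-Bmal1WT (log2 3.79, SE 0.24, adjusted p = 2.98e-19) and 24.2 in Hep-Bmal1KO (log2 4.60, SE 0.20, adjusted p = 1.71e-25). Adjusted p-values here and below come from the quasi-likelihood test of edgeR, corrected by the Benjamini-Hochberg method for all 15548 genes. Markers of macrophages moved with the diet as well, 7 of 7 being higher on cdHFD in both genotypes. Their summed level was between 103 and 224 CPM in Hep-Bmal1WT on NC and between 487 and 1083 CPM on cdHFD, and between 82.7 and 243 CPM and between 576 and 1148 CPM in Hep-Bmal1KO. High levels of Cidec on NC lay partly in libraries with adipocyte markers. In Hep-Bmal1KO, the livers with 7.69 and 4.17 CPM of Cidec had adipocyte sums of 53.7 and 36.9 CPM. In Hep-Bmal1WT, a liver with 11.5 CPM had an adipocyte sum of 83.3 CPM, but that with 15.3 CPM had 1.83 CPM. Without the 21 libraries with muscle or adipocyte markers, the log2 fold change in Hep-Bmal1KO was 5.36. The parts of macrophages and of adipocyte RNA in the level of Cidec were not tested. In whole liver, more cells of a type cannot be told apart from more RNA per cell.

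**Figure D1:**
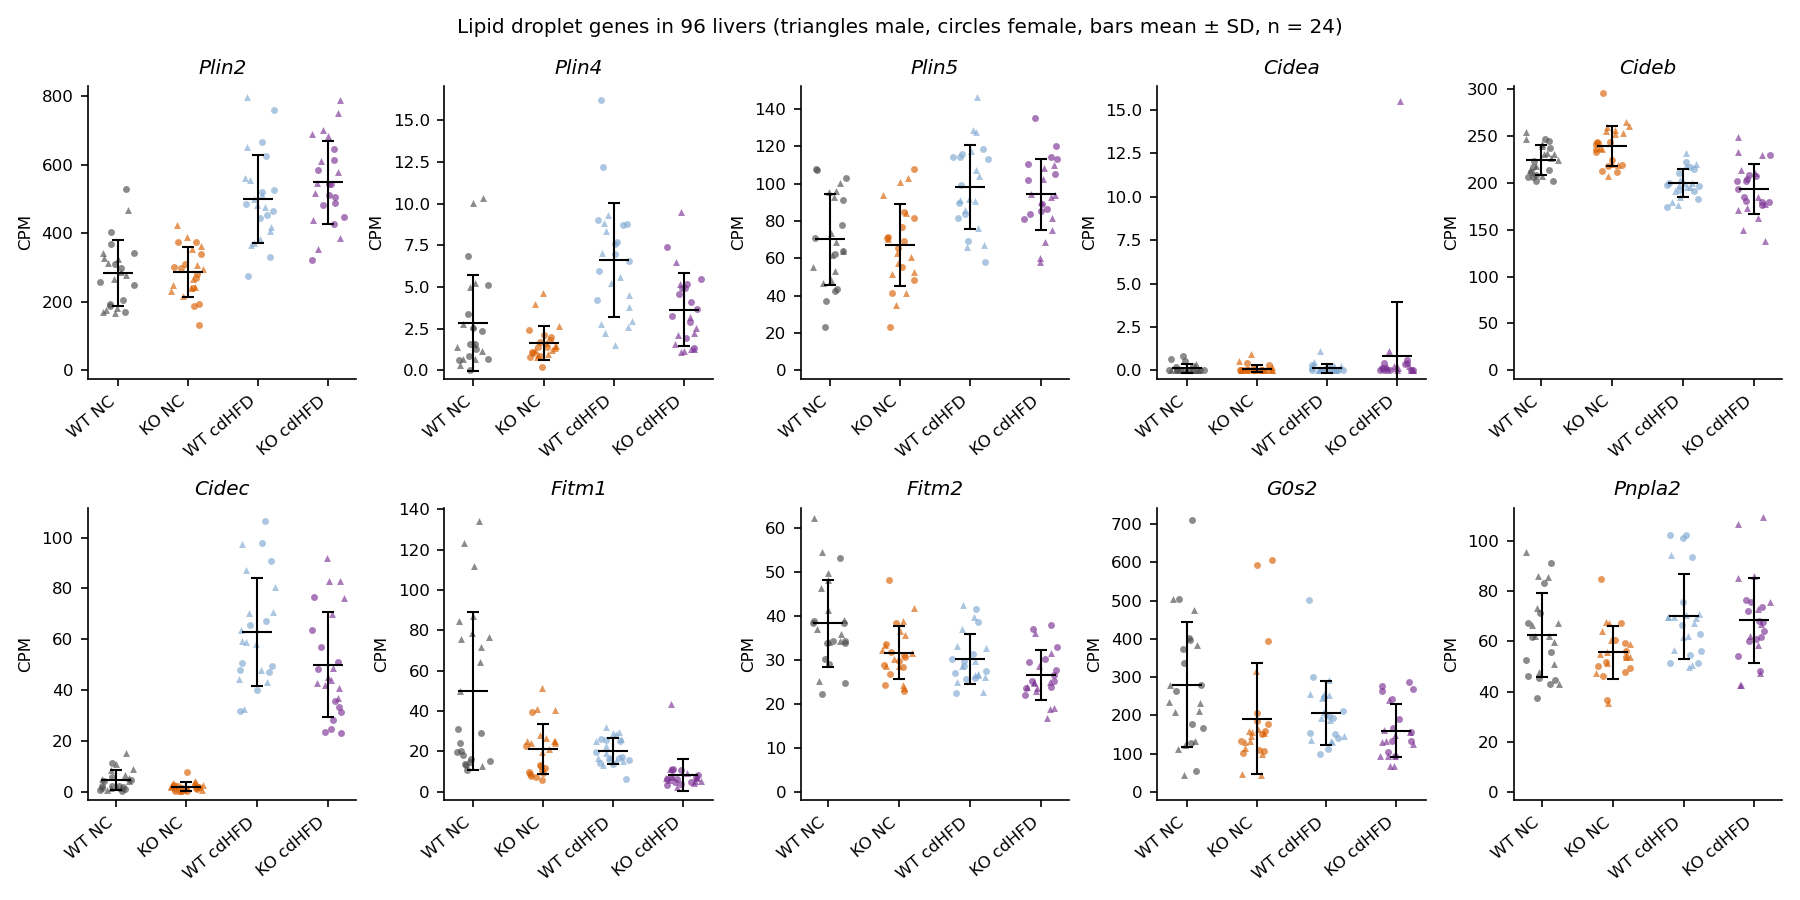
Level of the 10 lipid droplet genes in CPM (linear axis, 1 panel per gene) in each of the 96 livers, by genotype (WT, Hep-Bmal1WT; KO, Hep-Bmal1KO) and diet, with triangles for males, circles for females, and bars for the mean ± SD of 24 livers. Cidec on cdHFD, at 31.7 to 107 CPM in WT and 23.1 to 91.9 CPM in KO, stands clear of NC, and 1 KO liver on cdHFD holds 15.5 CPM of Cidea while all others hold at most 1.12 CPM.

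The 3 perilipins rose on cdHFD in both genotypes. Plin2 in Hep-Bmal1WT had a lowest, median, and highest level of 168, 282, and 528 CPM on NC and of 276, 484, and 796 CPM on cdHFD. In Hep-Bmal1KO the values were 132, 289, and 424 CPM on NC and 323, 543, and 788 CPM on cdHFD. The ranges of the diets overlapped in each genotype. Plin2 rose 1.81-fold in Hep-Bmal1WT (log2 0.86, SE 0.08, adjusted p = 2.59e-13) and 1.93-fold in Hep-Bmal1KO (log2 0.95, SE 0.07, adjusted p = 1.04e-17), at 6 of 6 ZTs in each. Plin5, which tethers droplets to mitochondria, rose from 70.3 ± 24.3 to 98.2 ± 22.7 CPM (SD, n = 24) in Hep-Bmal1WT and from 67.1 ± 22.0 to 94.2 ± 18.9 CPM (SD, n = 24) in Hep-Bmal1KO. These are log2 fold changes of 0.52 and 0.53. Plin4 was a gene of few counts, and rose from 2.86 ± 2.88 to 6.61 ± 3.40 CPM (SD, n = 24) in Hep-Bmal1WT (log2 1.31, SE 0.27) and from 1.64 ± 0.996 to 3.64 ± 2.21 CPM (SD, n = 24) in Hep-Bmal1KO (log2 1.14, SE 0.21). In males alone Plin4 was not past the threshold in either genotype, with log2 fold changes of 0.71 (adjusted p = 0.0935) and 0.60 (adjusted p = 0.100), and in females alone they were 1.95 and 1.58.

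Among the remaining genes, the direction was downward for Cideb and for both FIT genes. Cideb fell from 224 ± 15.9 to 200 ± 15.1 CPM (SD, n = 24) in Hep-Bmal1WT (log2 −0.16, SE 0.04) and from 239 ± 20.9 to 193 ± 27.0 CPM (SD, n = 24) in Hep-Bmal1KO (log2 −0.31, SE 0.05). Cidec and Cideb, members of the same family, therefore went opposite ways on cdHFD in both genotypes. Fitm2 fell by 0.33 (SE 0.08) in Hep-Bmal1WT and by 0.26 (SE 0.07) in Hep-Bmal1KO on the log2 scale, and Fitm1 fell by 1.25 (SE 0.26) and 1.39 (SE 0.24). In females alone, Fitm2 was not past the threshold in either genotype (−0.16, adjusted p = 0.247, and −0.094, adjusted p = 0.342), and neither were Cideb (−0.096, adjusted p = 0.251) and Fitm1 (−0.092, adjusted p = 0.735) in Hep-Bmal1WT. For lipolysis, Pnpla2 rose from 55.6 ± 10.5 to 68.3 ± 17.1 CPM (SD, n = 24) in Hep-Bmal1KO (log2 0.30, SE 0.08, adjusted p = 0.000632). In Hep-Bmal1WT its log2 fold change was 0.17 (SE 0.09, adjusted p = 0.0968), which passed without the 7 libraries nearer the other label (0.24, adjusted p = 0.0206), in females alone (0.37, adjusted p = 0.0186), and with DESeq2 (0.20, adjusted p = 0.0441). G0s2 passed in neither genotype, at −0.40 (SE 0.20, adjusted p = 0.0830) in Hep-Bmal1WT and −0.13 (SE 0.20, adjusted p = 0.596) in Hep-Bmal1KO. In all, 4 of the 10 genes rose and 3 fell in Hep-Bmal1WT, where 28.7% and 27.0% of all genes did so. In Hep-Bmal1KO, 6 rose and 3 fell, where 32.4% and 29.6% of all genes did. The 2 diet comparisons used different mice, and no gene of the 10 passed the test of a genotype difference that depends on the diet, where 1.04% of all genes passed in the positive and 2.00% in the negative direction. The lowest adjusted p-values of the 10 in that test were those of Cideb (0.157) and Cidec (0.164). The genotype difference of Cidec was higher on cdHFD than on NC by 0.80 on the log2 scale (95% interval 0.17 to 1.42, adjusted p = 0.164), and that of Cideb was −0.14 in the same coding.

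The sixth gene that passed as higher on cdHFD than on NC in Hep-Bmal1KO was Cidea, and its value rested on a single liver. Cidea had 15 counts in all 24 livers of Hep-Bmal1WT on NC, 14 in Hep-Bmal1KO on NC, 21 in Hep-Bmal1WT on cdHFD, and 201 in Hep-Bmal1KO on cdHFD. Of the 201, 164 were in replicate 2 at ZT10, a male liver with 15.5 CPM of Cidea. The same library held 49.5 CPM of Ucp1, the uncoupling protein of brown fat, and a summed level of 42.1 CPM for the 4 adipocyte markers tested. Without it, the log2 fold change on cdHFD fell from 1.80 (SE 0.75, adjusted p = 0.0343) to 0.75 (adjusted p = 0.284). The call was lost in 8 of 13 alternatives, among them that without the 7 libraries nearer the other label (1.61, adjusted p = 0.0756). No count of Cidea was found in 18, 18, 16, and 10 of the 24 livers of the 4 groups, so Cidea was not detectable in those livers at this depth.

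Genotype was compared within each diet. On NC, 4 of the 10 genes were lower in livers labelled Hep-Bmal1KO and none was higher, where 5.60% of all genes were lower and 7.01% higher. Fitm1 fell from 49.9 ± 39.1 CPM (SD, n = 24) in Hep-Bmal1WT to 21.4 ± 12.4 CPM (SD, n = 24) in Hep-Bmal1KO (log2 −1.19, SE 0.29, adjusted p = 0.00395). Cidec fell from 4.55 ± 3.99 to 2.05 ± 1.65 CPM (SD, n = 24; log2 −1.12, SE 0.34, adjusted p = 0.0190). G0s2, the lipase inhibitor, fell from 281 ± 164 to 191 ± 146 CPM (SD, n = 24; log2 −0.64, SE 0.20, adjusted p = 0.0224). Fitm2 fell from 38.3 ± 9.88 to 31.7 ± 6.03 CPM (SD, n = 24; log2 −0.26, SE 0.08, adjusted p = 0.0238). The ranges of the genotypes overlapped for each of the 4. Without the 7 libraries nearer the other label, the same 4 genes passed. The calls on NC were sensitive to the mice included: 0 of the 10 passed without the mice numbered replicate 2 or in females alone, Fitm1 alone passed without replicate 1, and Cidec and Fitm1 passed without the 21 libraries with muscle or adipocyte markers. Replicates 1 and 2 on NC were all males, so leaving out either also changed the balance of the sexes.

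On cdHFD, 3 genes were lower in Hep-Bmal1KO and none was higher, where 5.0% of all genes were lower and 4.62% higher. Fitm1 had a lowest, median, and highest level of 6.42, 18.1, and 32.1 CPM in Hep-Bmal1WT and of 2.22, 6.67, and 43.5 CPM in Hep-Bmal1KO. The 43.5 CPM belonged to 1 of the 7 libraries nearer the other label, as did the 6.42 CPM. The log2 fold change was −1.32 (SE 0.19, adjusted p = 3.79e-06), and −1.62 without those libraries. Plin4 had a lowest, median, and highest level of 1.53, 6.77, and 16.2 CPM in Hep-Bmal1WT and of 1.12, 3.24, and 9.51 CPM in Hep-Bmal1KO. Its level was thus lower in Hep-Bmal1KO with overlapping ranges (log2 −0.88, SE 0.19, adjusted p = 0.00129), and it was lower at 6 of 6 ZTs. Cidec fell from 62.9 ± 21.2 to 50.03 ± 20.6 CPM (SD, n = 24; log2 −0.34, SE 0.11, adjusted p = 0.0339). Fitm1 and Plin4 passed in all 14 alternatives run, whereas Cidec did not in 4 of them, with values down to −0.14 (adjusted p = 0.544) in males alone. The difference of Fitm2, −0.19 (SE 0.07, adjusted p = 0.0512), was just outside the threshold, and passed in 5 of 14 alternatives, among them that without the 7 libraries nearer the other label (−0.22, adjusted p = 0.0175). G0s2 did not pass (−0.35, adjusted p = 0.171), but did so in males alone (−0.70, adjusted p = 0.00846), with −0.048 (adjusted p = 0.944) in females alone.

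Plin2, Plin5, Cideb, and Pnpla2 passed the genotype test on neither diet. Plin2 had a log2 difference of 0.04 on NC (95% interval −0.09 to 0.17) and of 0.14 on cdHFD (95% interval 0.0036 to 0.27, adjusted p = 0.226). For Plin5 these were −0.06 and −0.04, for Pnpla2 −0.16 and −0.03, and for Cideb 0.09 and −0.05.

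**Figure D2:**
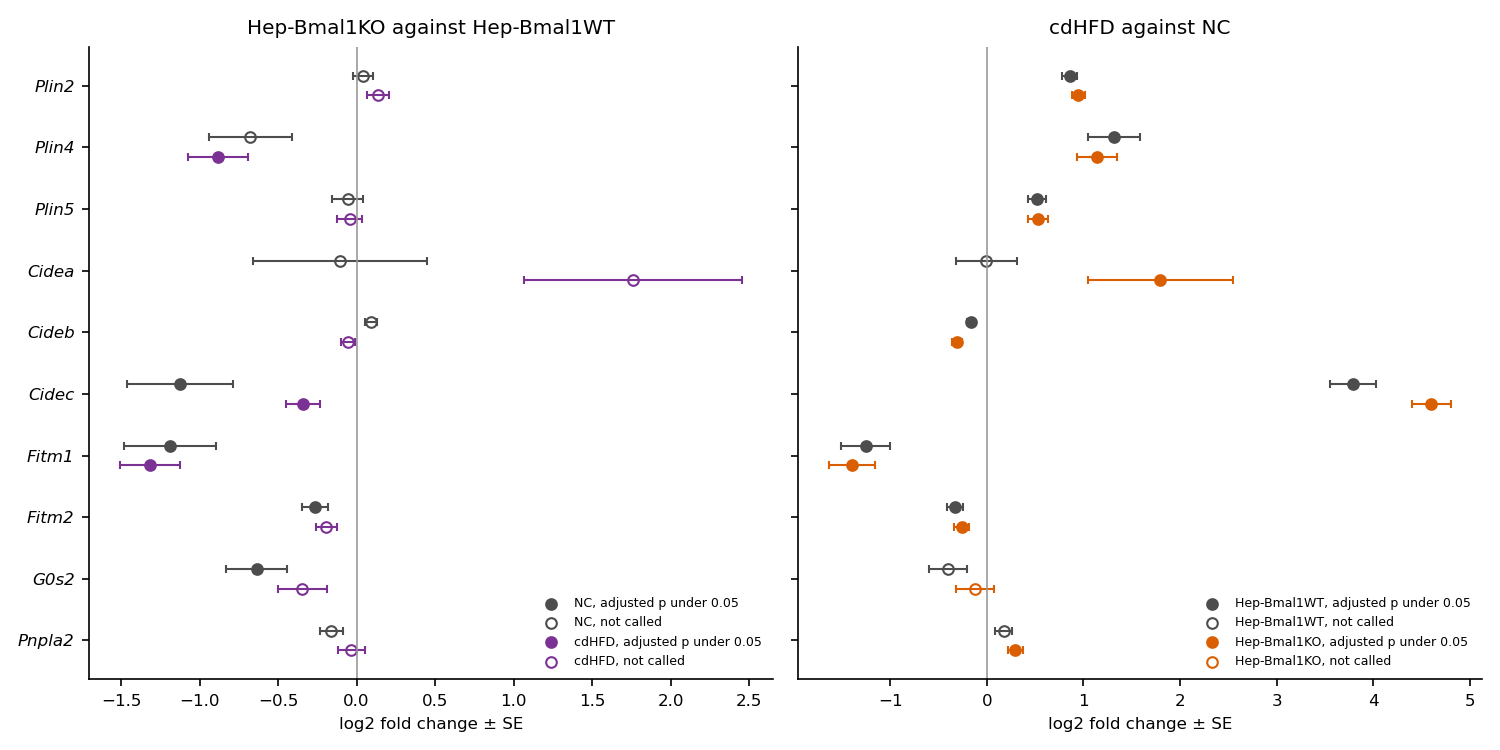
Log2 fold change ± SE of the 10 genes between genotypes on each diet (left) and between diets in each genotype (right), from edgeR's quasi-likelihood test on 48 livers per comparison, with filled points for an adjusted p under 0.05. Fitm1 lies below 0 in all 4 comparisons, at −1.19 and −1.32 for genotype and −1.25 and −1.39 for diet, and Cidec lies farthest to the right for diet, at 3.79 and 4.60.

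The spread of Fitm1 on NC had a second source of difference, the sex of the mouse. Fitm1 is known mainly from skeletal and heart muscle, and its gene (chromosome 14, 55575674 to 55576952 in GRCm38) overlaps no other gene of the RefSeq annotation. In males labelled Hep-Bmal1WT on NC, Fitm1 had a lowest, median, and highest level of 12.9, 77.8, and 134 CPM. In females of the same group these were 10.99, 17.2, and 31.1 CPM. In Hep-Bmal1KO on NC, males had 19.9, 25.4, and 51.6 CPM and females 5.87, 10.2, and 39.7 CPM. The ranges of the sexes overlapped only through libraries nearer the other genotype label. The male with 12.9 CPM was one of them, as were the females with 39.7 and 22.5 CPM. Leaving those libraries out, males of Hep-Bmal1WT ranged from 49.95 to 134 CPM against 10.99 to 31.1 CPM in females, and males of Hep-Bmal1KO from 19.9 to 51.6 CPM against 5.87 to 13.5 CPM. Over all 48 livers on NC, Fitm1 was 3.14-fold higher in males (log2 1.65, SE 0.17, adjusted p = 6.38e-11), where 8.63% of all genes were higher in males and 9.96% lower.

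On cdHFD the difference between sexes was smaller. Males and females labelled Hep-Bmal1WT had 22.4 ± 6.51 CPM (SD, n = 13) and 17.9 ± 5.96 CPM (SD, n = 11) of Fitm1, and those labelled Hep-Bmal1KO had 9.65 ± 10.9 CPM and 7.23 ± 2.70 CPM (SD, n = 12 each). The log2 difference over the 48 livers was 0.31 (SE 0.18, adjusted p = 0.392). The test of whether the sex difference depends on the diet passed for Fitm1, with a change of −1.34 (SE 0.26, adjusted p = 0.000114), where 3.67% of all genes passed in this direction and 4.24% in the other. Seen by sex, the diet difference of Fitm1 in Hep-Bmal1WT was −1.74 in males (adjusted p = 7.53e-09) and −0.09 in females (adjusted p = 0.735). In Hep-Bmal1KO it was −1.83 in males (adjusted p = 1.93e-06) and −0.78 in females (adjusted p = 0.000544). The genotype difference on NC was −1.37 in males (adjusted p = 6.63e-06) and −0.58 in females (adjusted p = 0.131), and on cdHFD −1.35 (adjusted p = 0.00430) and −1.30 (adjusted p = 5.40e-05). A dependence of the genotype difference on sex was not tested. The library with the highest muscle sum, 1550 CPM, was a female labelled Hep-Bmal1WT at ZT18 with 16.4 CPM of Fitm1, and was 1 of the 7 nearer the other label. On NC the highest males, with 134 CPM in Hep-Bmal1WT and 51.6 CPM in Hep-Bmal1KO, had muscle sums of 189 and 240 CPM. Females labelled Hep-Bmal1WT with 31.1, 29.2, and 24.3 CPM had muscle sums of 46.7, 457, and 969 CPM. By contrast, a Hep-Bmal1KO male at ZT14 with a muscle sum of 717 CPM had 24.4 CPM of Fitm1. The part of muscle RNA in the level of Fitm1 was not tested. Without the 21 libraries with muscle or adipocyte markers, the sex difference on NC was 1.48 (adjusted p = 1.55e-05), and the genotype difference was −1.37 on NC and −1.23 on cdHFD.

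**Figure D3:**
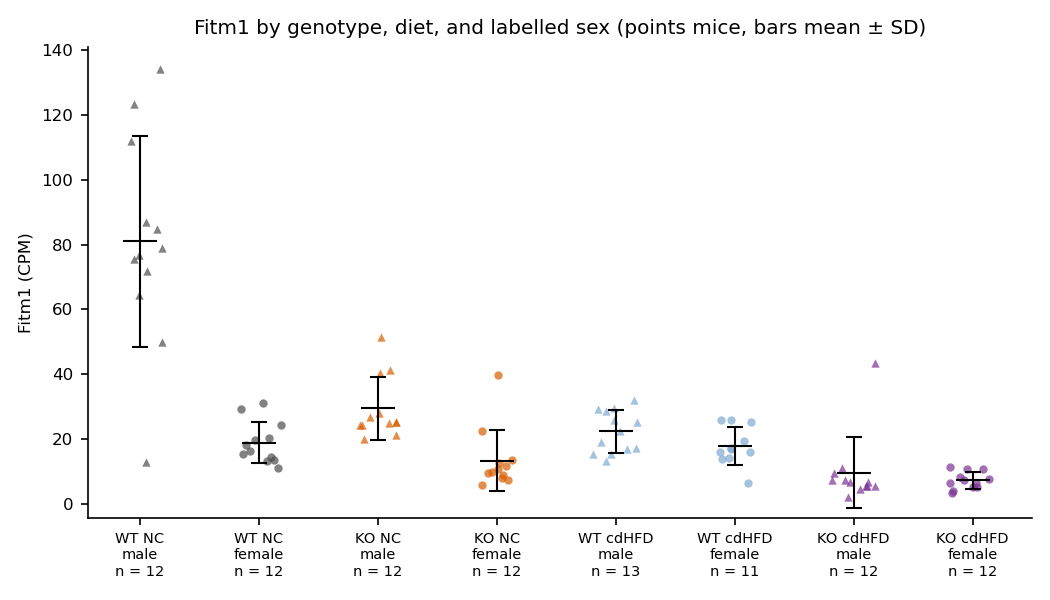
Level of Fitm1 in CPM (linear axis) by genotype (WT, Hep-Bmal1WT; KO, Hep-Bmal1KO), diet, and labelled sex, with 1 point per liver and bars for the mean ± SD of the n livers given under each column. Males of WT on NC, with a mean of 80.9 CPM, stand above the other 7 columns, whose means lie between 7.23 and 29.5 CPM, and single points at 12.9, 39.7, 22.5, and 43.5 CPM belong to libraries nearer the other genotype label.

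Few other genes of the 10 differed between the sexes. G0s2 was lower in males on NC, with 192 ± 123 CPM against 280 ± 182 CPM (SD, n = 24 each; log2 −0.50, SE 0.18, adjusted p = 0.0384), a call that was lost without replicate 2, without replicate 3, and without the libraries with muscle or adipocyte markers. Plin4 was lower in males on cdHFD, with 4.10 ± 2.75 CPM (SD, n = 25) against 6.25 ± 3.35 CPM (SD, n = 23; log2 −0.67, SE 0.17, adjusted p = 0.00764). This was 1 of 10 genes, where 3.42% of all genes were lower in males on cdHFD and 2.34% higher. Without replicate 2 and without replicate 4 it was not past the threshold (adjusted p = 0.0565 and 0.272). The sex difference of Plin4 on cdHFD was lower than that on NC by 1.11 on the log2 scale (SE 0.31, adjusted p = 0.0133), a call lost in 4 of 11 alternatives, with adjusted p-values up to 0.163. Without the 7 libraries nearer the other label, Fitm2 (0.22, adjusted p = 0.0362) and Pnpla2 (0.20, adjusted p = 0.0178) also passed as higher in males on NC, and the sex difference of Fitm2 changed with diet by −0.32 (adjusted p = 0.0332). Females of Hep-Bmal1WT on cdHFD had the highest mean of Plin4, 8.54 ± 3.26 CPM (SD, n = 11).

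The levels were then followed over the day. Rhythmic here means an unadjusted p under 0.01 by any of 3 tests with a period of 24 hours, a cosinor F test, JTK_CYCLE, and edgeR's joint test of cosine and sine. In Hep-Bmal1WT on NC, 5 of the 10 genes were rhythmic, namely Plin2, Plin4, Plin5, Fitm2, and Pnpla2, where 22.5% of all genes were. In Hep-Bmal1KO on NC, Plin2, Plin5, and G0s2 were, against 11.1% of all genes. On cdHFD, 6 were rhythmic in Hep-Bmal1WT (Plin2, Plin5, Cideb, Cidec, Fitm2, and Pnpla2, against 18.7%) and 4 in Hep-Bmal1KO (Plin2, Plin4, Cidea, and Cidec, against 10.3%). Without the liver at ZT10 that held most counts of Cidea, the genes called in that group were Plin2, Cideb, and G0s2, and the calls of Plin4, Cidea, and Cidec were lost. Only Plin2 was rhythmic in all 4 groups.

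**Figure D4:**
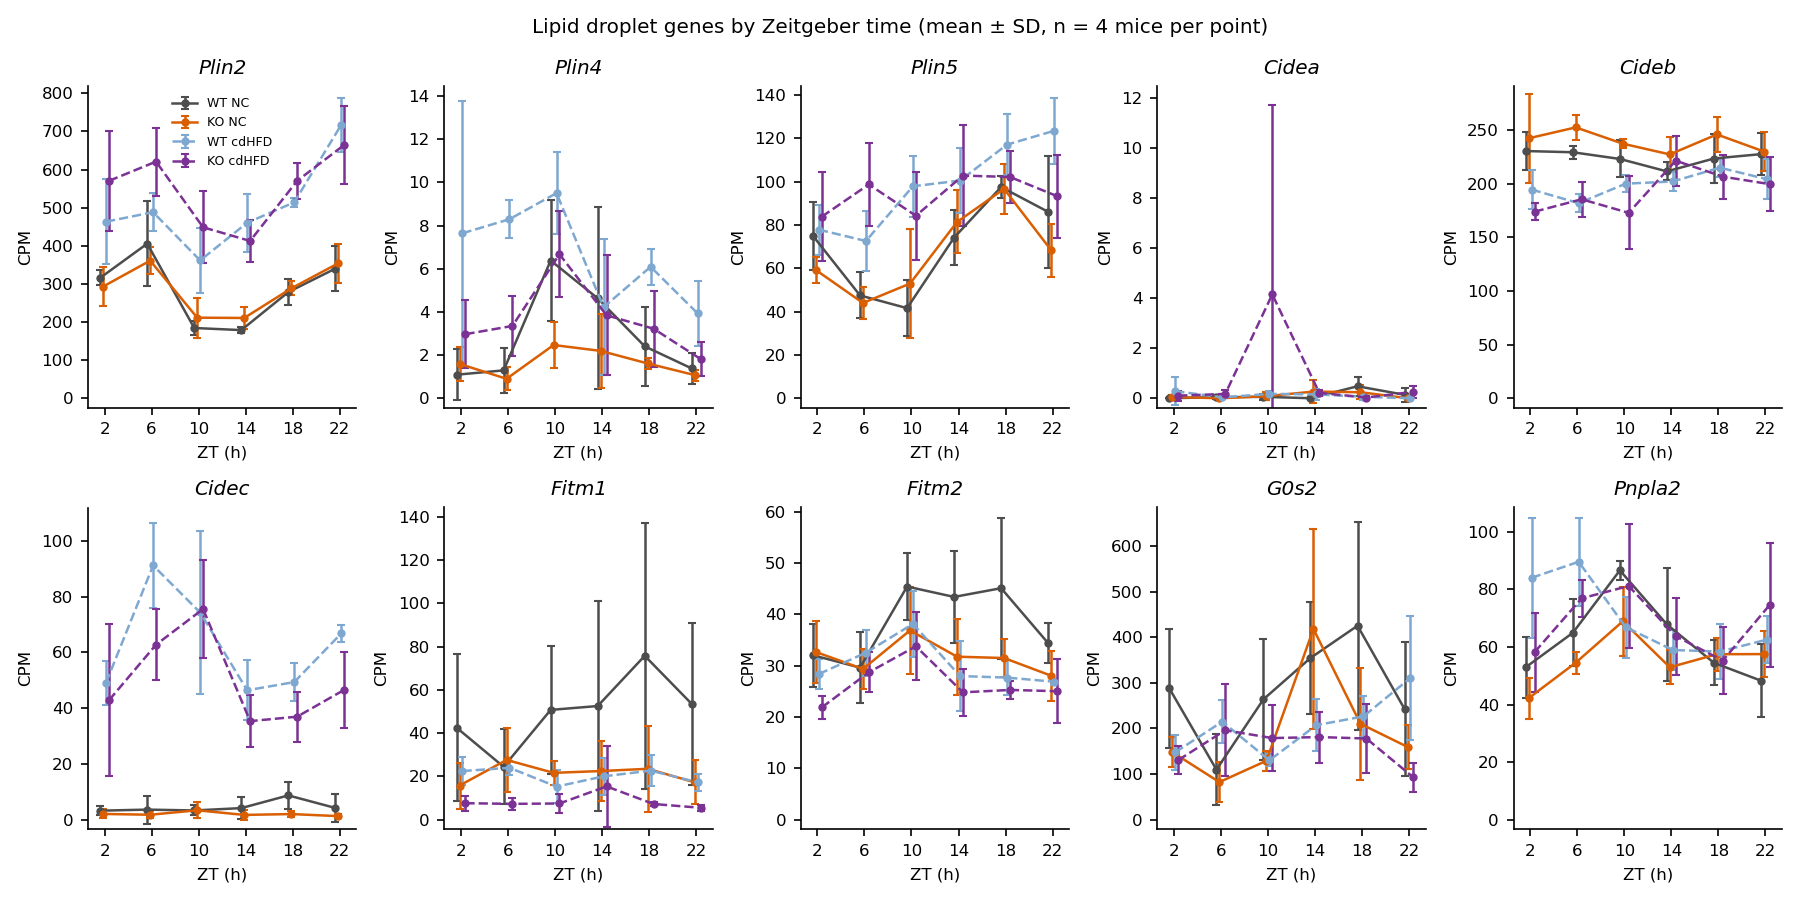
Mean ± SD level in CPM (linear axis, 1 panel per gene) of the 10 genes at each ZT in hours, with 4 livers per point, solid lines for NC, dashed lines for cdHFD, and colours for the 4 groups (WT, Hep-Bmal1WT; KO, Hep-Bmal1KO). Error bars that reach far under 0 are cut at the foot of the panel. Plin2 on NC is high at ZT6 and low at ZT14 in both genotypes, and Plin4 in WT on NC is high at ZT10.

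Plin2 in Hep-Bmal1WT on NC was highest at ZT6, with 286, 341, 467, and 528 CPM in the 4 livers, and lowest at ZT14, with 170, 176, 182, and 188 CPM. No liver at ZT14 reached the lowest at ZT6. In Hep-Bmal1KO on NC the highest and lowest means fell at the same times, 361 CPM at ZT6 and 211 CPM at ZT14. Plin5 in Hep-Bmal1WT on NC was highest at ZT18, with 91.2, 95.7, 100.1, and 103 CPM, and lowest at ZT10, with 23.1, 43.5, 46.5, and 53.2 CPM. The fitted peaks of Plin2 and Plin5 in this group were ZT 1.21 and ZT 20. Pnpla2, the lipase, had its fitted peak at ZT 10.3, near the trough of Plin5, with 83.4, 85.7, 85.9, and 91.5 CPM at ZT10 and 37.4, 43.1, 46.2, and 66.4 CPM at ZT22. Plin4 in the same group was highest at ZT10, with 3.36, 5.26, 6.87, and 10.02 CPM, and lowest at ZT2, where 3 livers had under 1 CPM and the other 2.78 CPM.

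Amplitudes were compared with the CircaCompare model on variance-stabilized values, on the log2 scale, among genes rhythmic in either of the groups compared. On NC, the amplitude of Plin4 was 0.70 in Hep-Bmal1WT and 0.22 in Hep-Bmal1KO (difference −0.48, SE 0.22, unadjusted p = 0.0313), where 13.2% of the genes compared had a lower amplitude and 0.959% a higher one. On cdHFD, the amplitude of Plin5 was 0.35 and 0.11 (difference −0.24, SE 0.11, unadjusted p = 0.0351), where 10.5% had a lower one and 1.19% a higher one. In Hep-Bmal1KO, the amplitude of Plin5 was lower on cdHFD than on NC by 0.41 (SE 0.13, unadjusted p = 0.00372), where 15.4% of the genes were lower and 4.31% higher. Plin5 in Hep-Bmal1KO on cdHFD varied little over the day, with a highest mean of 103 CPM at ZT14 and a lowest of 83.8 CPM at ZT2. None of these passed after Benjamini-Hochberg adjustment over the genes compared (adjusted p = 0.324, 0.411, and 0.134). The genotype calls of amplitude also depended on the 7 libraries nearer the other label. Without them, Fitm2 and Pnpla2 joined Plin4 on NC at the unadjusted threshold, and the call of Plin5 on cdHFD was lost. In Hep-Bmal1WT no amplitude of the 10 differed between diets at an unadjusted p under 0.05. A separate interaction test of edgeR returned 3 genes, Plin2, Plin4, and Pnpla2. Such a test of cosine and sine terms does not separate amplitude from peak time. Its share over all genes is not given, so the count of 3 cannot be read as a result about these genes. By the CircaCompare model, 19% of the genes compared between diets in Hep-Bmal1WT had a lower amplitude on cdHFD and 3.29% a higher one.

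Peak times differed between diets in Hep-Bmal1WT, where 4 of the genes were rhythmic on both diets. Pnpla2 peaked at ZT 10.3 on NC and ZT 4.59 on cdHFD, a difference of −5.69 hours (SE 1.16, adjusted p = 0.000114 over the 1226 genes compared by CircaCompare). On cdHFD its highest mean was at ZT6, with 67.5, 93.7, 94.7, and 103 CPM, and its lowest at ZT18, with 49.9, 51.3, 62.7, and 69.7 CPM. Fitm2 peaked at ZT 14.7 and ZT 8.60 (−6.07 hours, SE 1.69, adjusted p = 0.00366). Plin2 peaked at ZT 1.21 and ZT 21.7 (−3.53 hours, SE 1.10, adjusted p = 0.00856), and was highest at ZT22 on cdHFD, with 650, 666, 758, and 796 CPM. For Plin5 the difference was −2.08 hours (SE 1.09, adjusted p = 0.130). Of all 1226 genes, 39.5% peaked earlier and 6.12% later on cdHFD at an unadjusted p under 0.05, and the median difference was −1.88 hours. The 9 clock genes rhythmic on both diets all peaked earlier, with a median of −4.60 hours. In Hep-Bmal1KO, Plin2 alone was rhythmic on both diets, and its peak moved by −0.37 hours (SE 1.39, adjusted p = 0.901). There, 30.6% of 330 genes peaked earlier and 12.1% later. Whether the shift of Plin2 differed between genotypes was not tested. Between genotypes, phases could be compared for Plin2 and Plin5 on NC (−0.62 and −1.98 hours) and for Plin2 and Cidec on cdHFD (2.55 and 1.79 hours). None of these 4 passed, with adjusted p-values from 0.374 to 0.826, where on NC 11.1% of genes were earlier and 2.20% later in Hep-Bmal1KO and on cdHFD 4.70% earlier and 10.1% later.

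**Figure D5:**
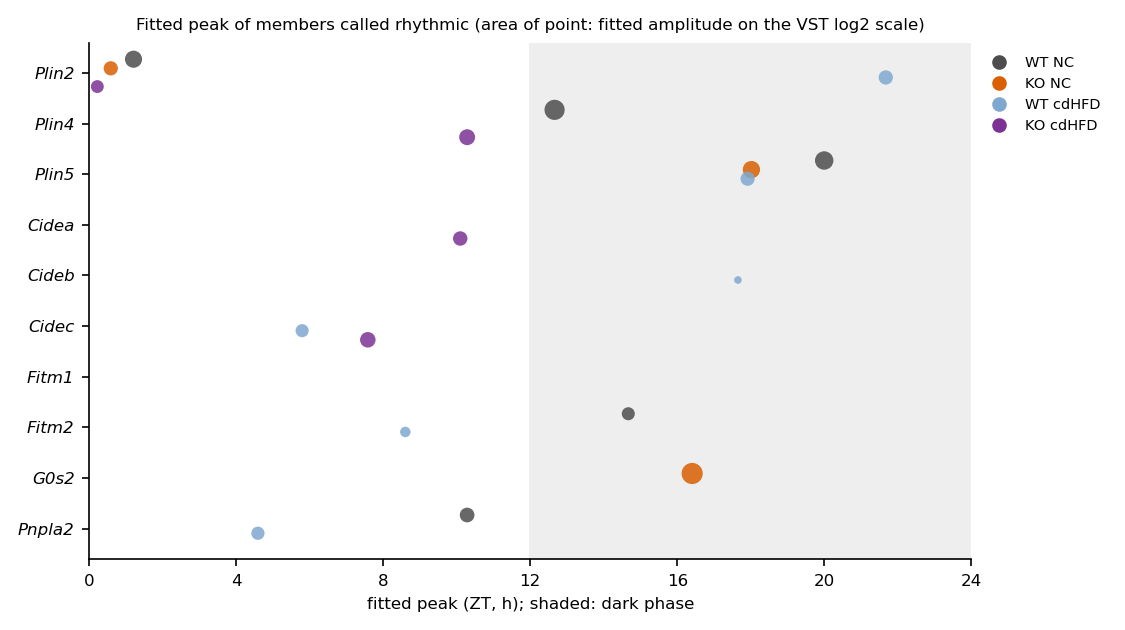
Fitted peak in ZT hours (horizontal axis, dark phase shaded) of each lipid droplet gene in the groups in which it was called rhythmic, with the area of a point in proportion to the fitted amplitude on the log2 scale (WT, Hep-Bmal1WT; KO, Hep-Bmal1KO). Pnpla2 and Fitm2 in WT lie at ZT 10.3 and 14.7 on NC and at ZT 4.59 and 8.60 on cdHFD, and Fitm1 has no point because it was not called in any group.

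The genes whose levels ran most alike with each of the 10 were taken over the 24 means of genotype, diet, and ZT, as a description. The 24 means share their libraries and hold the diet difference of each gene. Cidec ran with Nrros, Rgs1, and Ptprc (Pearson r of 0.98 for each over 24 means), of which Ptprc encodes the leukocyte antigen CD45. Plin2 ran with Add1 (r = 0.95), Plin5 with the linker histone genes H1f3 and H1f2 (r = 0.92 and 0.91), and Fitm1 with C1s1, Tcea3, and Khk (r = 0.94, 0.93, and 0.93). The second gene for Cidea was Ucp1 (r = 0.80). The lowest were those of G0s2, whose nearest gene, Nuak2, reached r = 0.78.

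Other droplet genes gave a wider view of the same livers. Of 11 further genes of the droplet coat and its growth, 10 were tested, and on cdHFD 5 rose and 5 fell in each genotype. Those that rose included Plin3, a perilipin found on small droplets, from 71.97 ± 15.2 to 113 ± 17.5 CPM in Hep-Bmal1WT (SD, n = 24). Hilpda, an inhibitor of Pnpla2 induced by hypoxia and fatty acids, rose from 4.52 ± 1.79 to 15.0 ± 3.65 CPM in Hep-Bmal1WT and from 5.55 ± 1.98 to 20.7 ± 5.38 CPM in Hep-Bmal1KO (SD, n = 24). It was higher in Hep-Bmal1KO on cdHFD (log2 0.48, SE 0.10, adjusted p = 0.000513). The droplet-bound Hsd17b13 also rose on cdHFD and was lower in Hep-Bmal1KO on both diets, by 0.26 (SE 0.06) on NC and 0.29 (SE 0.06) on cdHFD. The median difference of the 10 coat and growth genes between genotypes was −0.12 on NC and −0.09 on cdHFD, beside −0.01 and 0.01 for all genes tested, and 3 were lower on NC and 2 on cdHFD.

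Of 5 tested lipolysis genes, 1 rose and 3 fell on cdHFD in each genotype. Abhd5, the activator of Pnpla2, fell by 0.31 (SE 0.09) in Hep-Bmal1WT and by 0.50 (SE 0.09) in Hep-Bmal1KO on the log2 scale. Between genotypes, 1 of the 5 was higher and 1 lower in Hep-Bmal1KO on NC, and 0 were higher and 2 lower on cdHFD. Mgll, the monoglyceride lipase, was lower in Hep-Bmal1KO, by 0.47 (SE 0.07, adjusted p = 1.02e-05) on NC and 0.34 (SE 0.08, adjusted p = 0.00219) on cdHFD. Of 4 genes of triglyceride formation, Dgat2 alone differed between genotypes, and was lower in Hep-Bmal1KO by 0.27 (SE 0.09) on NC and 0.48 (SE 0.08) on cdHFD. Among 7 transcription factors known to act on droplet genes, 3 were lower in Hep-Bmal1KO on NC and 2 on cdHFD. Mlxipl, which encodes the carbohydrate-responsive factor ChREBP, was lower by 0.57 (SE 0.09) on NC and 0.66 (SE 0.08) on cdHFD. On cdHFD, Mlxipl fell in both genotypes (log2 −1.16 and −1.26), whereas Pparg rose (log2 0.46 and 0.73).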

How the data were processed

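Liver RNA of 96 mice was measured by BRB-seq. The authors prepared 3′ libraries with the MERCURIUS kit and used STAR with the mm10 genome for alignment. The deposited values are raw counts of reads per gene, which had not been normalized. The submitters' processing notes name both HTSeq and featureCounts, and whether strand was used is not given in the sources used here, so reads of overlapping genes (Plin4 with Hdgfl2, Cideb with Nop9 and Ltb4r2) may be shared. Rows that name no gene held between 22.6% and 39.9% of the reads of a library and were left out. Groups, ZT, and sex were taken from the deposited labels, and the label chow is called NC. Replicate numbers were given in accession order within each group and ZT. On NC, replicates 1 and 2 were thus always males and replicates 3 and 4 females. The same held on cdHFD except at ZT2, where the order was reversed, and at ZT14 in Hep-Bmal1WT, where replicate 3 was a male. Leaving out a replicate number therefore also changed the balance of the sexes.

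The 10 genes and all gene lists were chosen with earlier results of these data known. The genes named were these 10, fixed lists of other droplet genes, transcription factors, clock genes, and cell markers, and the 3 genes of highest Pearson r with each of the 10. Plin1, Pnpla3, and Lep were under the filter of 100 counts. Counts were tested with edgeR 4.0.16 in R 4.3.3 (TMM, quasi-likelihood F test, ZT as a factor for genotype and diet, and genotype by ZT, with diet where pooled, for sex), with Benjamini-Hochberg adjustment over 15548 genes and a threshold of 0.05. Levels are CPM after TMM. Rhythm tests and the CircaCompare model, refitted by least squares, used variance-stabilized values from DESeq2 1.42.0. The scripts were tested on simulated data. Mice are the replicates. The study's methods do not say whether molecular identifiers were used to remove duplicate reads, and precision from depth covers counting error only. The genotype label was checked by placing each library between the medians of both labels at its diet and ZT, and no library was moved. Alternatives were DESeq2, other size factors and filters, each replicate number left out, sex as a covariate or each sex alone, single rhythm tests, and libraries left out by the label check. Leaving out libraries with muscle or adipocyte markers, a library labelled female whose Y-linked reads outnumbered Xist, and the liver with most Cidea counts was added after the data had been seen.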

Additional observations from a re-analysis of the deposited data

Results flagged for a closer look

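In 27 of the 240 groups of 4 livers (gene, genotype, diet, and ZT), 1 liver stood so far from the other 3 that its gap passed the 95% limit of Dixon's test, which chance alone passes in about 1 in 20 groups. Of the 27, 12 were groups of Cidea, in most of which the other 3 livers held no count. Where 3 livers hold no count, any count in the other liver passes this limit. The rate of 1 in 20 does not apply to such groups, so the 27 of 240 cannot be set against it. Livers with 1 to 4 counts of Cidea stood apart in Hep-Bmal1WT on NC at ZT6 (0.165 CPM), ZT10 (0.222 CPM), and ZT22 (0.548 CPM), in Hep-Bmal1KO on NC at ZT2 (0.184 CPM), ZT10 (0.320 CPM), and ZT14 (0.928 CPM), in Hep-Bmal1WT on cdHFD at ZT6 (0.137 CPM) and ZT18 (0.229 CPM), and in Hep-Bmal1KO on cdHFD at ZT2 (0.410 CPM) and ZT18 (0.114 CPM). A further liver of Hep-Bmal1WT on cdHFD at ZT2 held 9 counts of Cidea (1.12 CPM), and that of Hep-Bmal1KO on cdHFD at ZT10 held 164 (15.5 CPM).

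Among the other genes, single livers stood above the other 3 of their group in 12 cases. Cidec was 11.1 CPM in 1 liver of Hep-Bmal1WT on NC at ZT6 and 11.5 CPM in 1 at ZT22, where the next highest livers had 1.81 and 2.15 CPM. Fitm1 was 43.5 CPM in the library of Hep-Bmal1KO on cdHFD at ZT14 that lay nearer the other label, where the next had 7.57 CPM. G0s2 was 393 CPM in 1 liver of Hep-Bmal1KO on NC at ZT18 and 265 CPM in 1 of Hep-Bmal1KO on cdHFD at ZT14, where the next had 165 and 157 CPM. Plin4 was 5.13 CPM in 1 liver of Hep-Bmal1WT on NC at ZT18, Plin5 was 146 CPM in 1 of Hep-Bmal1WT on cdHFD at ZT22, and Pnpla2 was 107 CPM in 1 of Hep-Bmal1KO on cdHFD at ZT22. Cideb was 224 CPM in 1 liver of Hep-Bmal1WT and 252 CPM in 1 of Hep-Bmal1KO, both on NC at ZT14, and Fitm2 was 41.8 CPM in 1 of Hep-Bmal1KO on NC at ZT2 and 32.6 CPM in 1 of Hep-Bmal1WT on cdHFD at ZT18. Livers below the other 3 held 132 CPM of Plin2 (Hep-Bmal1KO on NC at ZT10, a library nearer the other label, where the others had 232 to 242 CPM), 19.03 CPM of Fitm1 (Hep-Bmal1WT on cdHFD at ZT6), and 23.9 CPM of Fitm2. The last was the liver of Hep-Bmal1KO on cdHFD at ZT10 that held most counts of Cidea.

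The sex difference depended on the diet, by edgeR's test of that difference, for Fitm1 (log2 −1.34, SE 0.26, adjusted p = 0.000114) and for Plin4 (log2 −1.11, SE 0.31, adjusted p = 0.0133). The call of Plin4 was lost in 4 of 11 alternatives (adjusted p up to 0.163), and that of Fitm1 in 0 of 11.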

How the results depend on the processing

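The number of genes called for diet, 7 in Hep-Bmal1WT and 9 in Hep-Bmal1KO, stayed within 1.5 times of these under every alternative run, but single calls and values did not. In Hep-Bmal1WT, Cideb, Fitm1, and Fitm2 were lost in females alone and Plin4 in males alone. In Hep-Bmal1KO, Plin4 was lost in males alone, Fitm2 in females alone (log2 −0.094, adjusted p = 0.342) and without the libraries with muscle or adipocyte markers (−0.16, adjusted p = 0.108), and Cidea in 8 of 13 alternatives (0.53 to 2.66). Leaving out each replicate number in turn gave 0 to 4 genes for genotype on NC (4 with all mice), 2 to 5 on cdHFD (3, with Cidea and Fitm2 added without replicate 3), 1 to 2 for sex on NC (2), 0 to 1 on cdHFD (1), and 1 to 2 for the change of the sex difference with diet (2). There, Plin4 was lost without replicate 1, 3, or 4. Rhythm calls became 3 to 5 in Hep-Bmal1WT on NC (5) and on cdHFD (6), both lowest without replicate 1, and 2 to 4 in Hep-Bmal1KO on cdHFD (4), where Plin2 was lost without replicate 3. Amplitude calls became 0 to 1 for genotype on NC (1), genotype on cdHFD (1), and diet in Hep-Bmal1WT (0). Plin4 on NC was lost without replicate 1, 2, or 3, and so was Plin5 on cdHFD.

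Without the 7 libraries nearer the other label, sex on NC gave 4 genes (Fitm1, Fitm2, G0s2, and Pnpla2), amplitude by genotype 3 on NC (Plin4, Fitm2, and Pnpla2) and 0 on cdHFD. Without the 21 libraries with muscle or adipocyte markers, a choice made after seeing the data, genotype on NC gave 2 genes, sex on NC 1, the change of the sex difference with diet 1, and amplitude by genotype 0 on each diet. Females alone gave 0 genes for genotype on NC, and males alone gave 1, Cidec, for the genotype difference that depends on diet (0 in both sexes together). Without a filter, sex on cdHFD gave 4 genes (Plin4, Cidec, Fitm1, and G0s2). The log2 differences hardly moved, and the p-values of edgeR's quasi-likelihood test alone changed. Fitm1 was at 0.31 with and without the filter (adjusted p = 0.392 and 0.00494). G0s2 was at −0.29 (adjusted p = 0.190 and 4.14e-05). The counts under the alternatives are given without the share over all genes. JTK_CYCLE alone called 3 genes in Hep-Bmal1WT on NC and 1 in Hep-Bmal1KO on cdHFD, where the cosinor test alone called 1 and adjusted p-values 2. Adjusted p-values and edgeR's interaction test each gave 0 amplitude differences for genotype on NC, genotype on cdHFD, and diet in Hep-Bmal1KO (1 each). With log2 CPM, genotype on NC gave 0 and diet in Hep-Bmal1WT 1 (Plin5). For the latter, edgeR's interaction test, which does not separate amplitude from peak time, gave 3, and its share over all genes is not given.

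Of genes not called, some log2 differences changed sign. For diet in Hep-Bmal1WT, Cidea became 0.14 with DESeq2, 0.019 with DESeq2's size factors, 0.14 without a filter, 0.19 without the 7 libraries, 0.83 without those with muscle or adipocyte markers, 0.039 with sex as a covariate, 1.46 in males, and −0.73 to 0.57 over the replicates left out. For genotype on NC, Cidea became 0.12 without the 7 libraries and 1.38 in males, with −0.81 to 0.63 over the replicates left out, Plin2 −0.058 in females (−0.0026 to 0.10), and Plin5 0.019 in females (−0.11 to 0.013). For genotype on cdHFD, Pnpla2 became 0.048 in males (−0.12 to 0.032) and Plin5 0.078 in females (−0.19 to 0.014). For the genotype difference that depends on diet, Plin5 became −0.041 without the 7 libraries and −0.090 in males (−0.14 to 0.11), Plin4 0.068 and Fitm1 0.14 without the libraries with muscle or adipocyte markers, Fitm1 0.037 in males, and Pnpla2 −0.11 in females, and Plin2 ran from −0.044 to 0.22. For sex on cdHFD, Cidea became −0.080 with DESeq2 (−0.44 to 2.58), Cideb 0.0027 without the libraries with muscle or adipocyte markers, and Pnpla2 −0.022 without the library whose sex-linked reads go against its label, a choice also made after seeing the data (−0.067 to 0.066). Plin2 ran from −0.015 to 0.093 for sex on NC and from −0.034 to 0.15 for its change with diet. The cause was not tested for any of these. No paired analysis was possible because the replicate numbers were given in accession order and pair no mice. Depth limits Cidea, with 1 to 4 counts in most livers that held any, and Plin4.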

Other observations

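Cell markers differed between diets beside the droplet genes. Of 5 hepatocyte markers, 4 fell and 1 rose on cdHFD in each genotype. Of 5 stellate cell markers, 4 rose in Hep-Bmal1WT and 5 in Hep-Bmal1KO. Gpnmb, a glycoprotein of lipid-laden macrophages, went from 2.49 ± 1.76 CPM on NC to 83.4 ± 21.2 CPM on cdHFD in Hep-Bmal1WT and from 1.93 ± 0.870 to 154 ± 50.7 CPM in Hep-Bmal1KO (SD, n = 24). Trem2, a lipid receptor of macrophages, went from 1.16 ± 0.686 to 30.6 ± 7.05 CPM and from 1.17 ± 0.722 to 43.9 ± 11.2 CPM (SD, n = 24). The 7 macrophage markers did not all go the same way between genotypes. On cdHFD, 3 of them were higher in Hep-Bmal1KO, 1 was lower, and 3 did not pass. The genotype difference depended on the diet for 1 of the 7, Gpnmb (log2 1.19, SE 0.24, adjusted p = 0.000784 from edgeR's quasi-likelihood test).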
